A study of Mus musculus with 58 samples.

Results

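The 9 genes of mouse microglia described here are all members of the interferon regulatory factor (IRF) and signal transducer and activator of transcription (STAT) families: Irf1, Irf2, Irf3, Irf5, Irf7, Irf8, Irf9, Stat2 and Stat3. They were chosen by name, with earlier results of these data known. Their counts and medians set beside those of all genes are therefore descriptions and not tests. Each of the 9 symbols matched 1 of the 47643 Ensembl genes in the count tables of 34 microglia libraries. All 9 had enough reads to be tested in every comparison, with 8 to 4947 reads per gene and library.

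IRFs and STATs are the transcription factors through which cells answer interferons and other cytokines. Type I interferon bound to its receptor activates kinases of the JAK family, and these lead to ISGF3, a complex in which STAT2 and IRF9 take part and which binds the interferon-stimulated response element (ISRE) of antiviral genes. IRF3, IRF5 and IRF7 are switched on downstream of sensors of nucleic acids and microbes, and IRF7 is itself an interferon-stimulated gene that amplifies interferon production. IRF1 is induced by interferon-γ and by NF-κB, IRF2 can compete with it for the same elements, IRF8 is a lineage factor of microglia that works together with PU.1, and STAT3 carries signals of the interleukin-6 and interleukin-10 families.

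The libraries were made with QuantSeq, which reads the 3′ end of polyadenylated transcripts. Microglia cultured from newborn wild-type pups were incubated for 24 h with 2 µg/ml fibrils of full-length tau or with vehicle (4 replicates each). Adult microglia were drawn with CD11b magnetic beads from the brains of male PS19 mice, which carry human tau with the P301S mutation, and of non-transgenic mice (NTG), with 4 mice of about 10.98 months per genotype, of which the older NTG mice were 11.18 months. In the third experiment IkbkbCA cultures (Cx3cr1 CreERT2/+; IkbkbCA F/F), in which Cre switches on a constitutively active IKKβ, the kinase that activates NF-κB, were compared with IkbkbWT cultures (Cx3cr1 +/+; IkbkbCA F/F), with 5 replicates each. In the fourth, Ikbkb-/- cultures (Cx3cr1 CreERT2/+; Ikbkb F/F), in which Cre deletes IKKβ, were compared with Ikbkb+/+ cultures (Cx3cr1 +/+; Ikbkb F/F), with 4 replicates each. All cultures of these 4 genotypes received 4-hydroxytamoxifen, and both control genotypes lack the Cre insertion in the Cx3cr1 locus, so that the insertion and the change in IKKβ cannot be told apart. Cortex samples of the same series were not analysed here.

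The libraries held 1672052 to 8349128 counted reads. Levels are given as CPM, which scales the reads of a gene to a common library size, with TMM factors computed over all 34 libraries. Since each transcript gives reads near its 3′ end whatever its length, CPM can be set side by side between genes. A gene was called changed at a Benjamini-Hochberg false discovery rate (FDR) under 0.05 in edgeR's quasi-likelihood test over all genes, and fold changes are on the log2 scale with their standard error (SE). Each replicate library of the culture experiments is called a culture below. Whether these were separate cultures, or came from separate pups, is not given in the sources used here. The p-values therefore measure the spread between these libraries, which may be technical.

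Several libraries stood apart before any comparison. In IkbkbCA, replicate 3 had 24700 CPM of Saa3, an acute-phase gene, against 901 to 1740 CPM in the other 4 IkbkbCA libraries. Each of the 4 groups of the Ikbkb experiments held 2 pairs of closely alike libraries, whose counts differed with a chi-square per degree of freedom of 3.35 to 5.48 in IkbkbWT and IkbkbCA (12.2 to 48.5 for the other pairs there) and of 2.07 to 5.09 in Ikbkb+/+ and Ikbkb-/- (4.5 to 10.1 for the others). No pair was identical. Xist, which is transcribed in female cells, and the Y-linked Ddx3y showed a mixed make-up of the Ikbkb cultures: Ddx3y was 154 to 172 CPM in Ikbkb-/- and 35 to 68.2 CPM in Ikbkb+/+, so that this difference and the genotype cannot be told apart. In IkbkbWT, replicates 4 and 5 had 1.1 and 1.98 CPM of Ddx3y and 451 and 470 CPM of Xist, whereas replicates 1 to 3 had 141 to 172 CPM and 1.67 to 2.75 CPM, and IkbkbCA had 48.9 to 84.1 CPM of Ddx3y. In PS19, replicate 1 is labelled male and had 175 CPM of Xist, and replicate 2 had 38.3% of its reads outside genes.

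The microglial identity of the libraries was checked with 8 markers, all detected in every library, with a summed level of 3540 to 37700 CPM. Summed markers of border macrophages (Mrc1, Lyve1, Cd163 and Pf4) moved with the Ikbkb genotypes, though not each of them in both experiments. Their sum was 1280 to 1640 CPM in IkbkbWT and 473 to 1010 CPM in IkbkbCA, and 1410 to 1660 CPM in Ikbkb+/+ and 408 to 706 CPM in Ikbkb-/-. Cd163 was at most 6.11 CPM in these cultures. Pf4 overlapped between IkbkbCA (223 to 813 CPM) and IkbkbWT (278 to 494 CPM). With tau fibrils the summed microglial markers were 6510 to 7690 CPM against 3540 to 4230 CPM with vehicle. Summed neuronal markers were 58.9 to 68.3 CPM against 113 to 139 CPM, and astrocyte markers 243 to 276 CPM against 386 to 433 CPM. Endothelial markers were 45.6 to 54 CPM against 90.2 to 111 CPM. Markers of oligodendrocyte precursors were 46.5 to 72.3 CPM against 81.1 to 95.4 CPM. Border macrophage markers went the other way (107 to 114 CPM against 55.4 to 91 CPM). Oligodendrocyte markers overlapped between tau fibrils and vehicle (165 to 200 CPM and 139 to 204 CPM). In Ikbkb-/- the oligodendrocyte markers summed to 475 to 547 CPM against 255 to 358 CPM in Ikbkb+/+, and the endothelial markers to 160 to 213 CPM against 63.4 to 111 CPM. Oligodendrocyte markers were 285 to 4600 CPM in IkbkbWT and 350 to 1680 CPM in IkbkbCA. Granulocyte markers summed to 409 to 2610 CPM in PS19 and 1580 to 2210 CPM in NTG. The part of these differences in the results was not tested, and in bulk samples fewer cells of a type and less RNA per cell cannot be told apart.

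The sequence before the start of each gene was read from the RefSeq promoter table (GRCm38.p6), which holds 12 annotated starts for the 9 genes. The letters of 3 motifs were searched on both strands in the 250 bases before the start: the ISRE core GAAANNGAA, the STAT element GAS (TTCNNNGAA, which reads the same on both strands) and GGNNNTTCC, which covers some κB elements and misses others. Of all 32851 starts in the table, 7.13% held the ISRE core, 7.02% held GAS and 15.7% held the κB letters. The ISRE core was found before Stat2 and Irf2 (2 of 9 genes), GAS before Irf1, Irf2 and Irf8, and the κB letters before Irf2, Irf3 and Stat3 (3 of 9 genes each), and no match overlapped another. The stretches before the starts of Stat2, Irf1, Irf8 and Irf7 are shown because the first 3 hold an ISRE core or GAS match clear of annotated exons and Irf7 had the largest changes of the 9. Capitals mark the matches, and each stretch runs 5′ to 3′ on the strand of its gene.
Stat2 (chr10:128270248-128270497, plus strand, ISRE core on the opposite strand 221 to 213 bases before the start): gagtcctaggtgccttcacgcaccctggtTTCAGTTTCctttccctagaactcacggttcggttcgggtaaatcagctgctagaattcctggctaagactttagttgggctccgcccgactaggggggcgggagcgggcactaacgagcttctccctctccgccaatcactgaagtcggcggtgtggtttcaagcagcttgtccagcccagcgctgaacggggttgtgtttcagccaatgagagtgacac
Irf1 (chr11:53769764-53770013, plus strand, GAS 90 to 82 bases before the start): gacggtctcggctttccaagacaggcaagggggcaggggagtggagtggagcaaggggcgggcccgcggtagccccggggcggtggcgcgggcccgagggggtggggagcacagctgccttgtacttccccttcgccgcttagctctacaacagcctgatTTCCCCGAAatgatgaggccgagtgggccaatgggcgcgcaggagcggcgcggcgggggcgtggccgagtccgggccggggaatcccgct
Irf8 (chr8:120736108-120736357, plus strand, GAS 171 to 163 and 153 to 145 bases before the start): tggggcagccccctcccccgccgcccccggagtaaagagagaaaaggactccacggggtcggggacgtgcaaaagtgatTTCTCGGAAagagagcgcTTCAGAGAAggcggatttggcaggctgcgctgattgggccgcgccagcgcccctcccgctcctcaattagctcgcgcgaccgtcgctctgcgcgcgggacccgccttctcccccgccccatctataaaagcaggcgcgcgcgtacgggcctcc
Irf7 (chr7:141266482-141266674, minus strand, the 193 bases of the window outside annotated exons): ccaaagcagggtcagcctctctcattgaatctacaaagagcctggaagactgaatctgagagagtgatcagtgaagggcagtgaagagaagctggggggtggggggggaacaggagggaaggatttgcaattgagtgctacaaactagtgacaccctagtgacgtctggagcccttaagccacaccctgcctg
No match to any of the 3 motifs was found in the Irf7, Irf5 or Irf9 windows, which says only that these letters are absent there. The window of Irf9 start 1 lay wholly within annotated Irf9 exons, and that of start 2 held 88 exonic bases. Both lie inside the annotated Irf9 gene, so the sequence before the gene itself was not searched.

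Tau fibrils changed 6 of the 9 genes, all upward. Irf7, Stat2, Irf1, Irf9, Irf2 and Irf5 rose, whereas Irf3, Irf8 and Stat3 did not pass the test. Over all 10408 genes tested 14.5% were called higher and 15.4% lower, and the groups did not overlap for 28.4%. For the same 6 of the 9 genes, every tau fibril culture lay above every vehicle culture. The median log2 fold change was 0.89 for the 9 genes and -0.01 for all genes. Each of the 6 calls held in all 13 alternative analyses. Ikbkb itself rose by 0.62 ± 0.16 (edgeR FDR = 0.00436).

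In PS19 microglia none of the 9 genes was called. Only 0.0707% of the 11323 genes tested (8 genes) were called in this comparison, where the biological coefficient of variation was 30.5% against 16.7% in the tau fibril experiment. At an unadjusted p under 0.05, 8.63% of all genes and 1 of the 9, Irf7, passed. The PS19 and NTG libraries did not overlap for 5.90% of all genes and for 2 of the 9, Irf7 and Irf9, both higher in PS19. With DESeq2 Irf7 was called (log2 fold change 1.2, DESeq2 FDR = 0.0217), and limma-voom called none of the 9. None was called without PS19 replicate 1 or without replicate 2.

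In the IkbkbCA experiment Ikbkb itself was 44.1, 45.9, 54.8, 55.9 and 59.5 CPM in IkbkbCA and 39.8, 41.9, 43, 45.3 and 57.7 CPM in IkbkbWT. The groups overlapped (0.17 ± 0.12, edgeR FDR = 0.405), and whether 3′ reads of the inserted IKKβ sequence are counted there is not given in the sources used here, so the gene does not check these labels. In IkbkbCA cultures 6 of the 9 genes changed. Irf7, Stat2, Irf9, Irf1 and Irf5 rose and Stat3 fell, whereas Irf2, Irf3 and Irf8 did not pass. Of the 11697 genes tested, 7.31% were called higher and 7.16% lower, and 12.3% had groups that did not overlap, which was so for the 5 genes that rose. The median was 0.41 for the 9 genes and -0.05 for all genes. Without replicate 3 of IkbkbCA the same 5 genes that rose were called and Stat3 was not, and the share called over all genes was 14.1%. When closely alike libraries were summed, leaving 3 per group, only Irf7 of the 9 was called, and the share called over all genes was 2.6%.

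In the deletion experiment Ikbkb was 18.4, 22.2, 24.4 and 24.6 CPM in Ikbkb-/- and 44.7, 52.4, 53 and 55.1 CPM in Ikbkb+/+. The groups lay apart, in the direction of the labels, and Ikbkb fell by 1.2 ± 0.12 (edgeR FDR = 6.3e-07). Of the 9 genes 5 changed, all upward. Irf7, Stat2, Irf9, Irf8 and Irf5 rose in Ikbkb-/- cultures. For all 11242 genes tested the shares were 7.64% higher and 6.96% lower, and 17.9% had groups that did not overlap, as had these 5 genes. The median was 0.39 for the 9 genes and 0 for all genes. In a fit that pooled the 18 Ikbkb libraries, or with closely alike libraries summed, 3 of the 9 were called, with Irf5 and Irf8 lost. Summing left only the 2 pairs of each group, and the share called over all genes was then 6.77%.

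**Figure D1:**
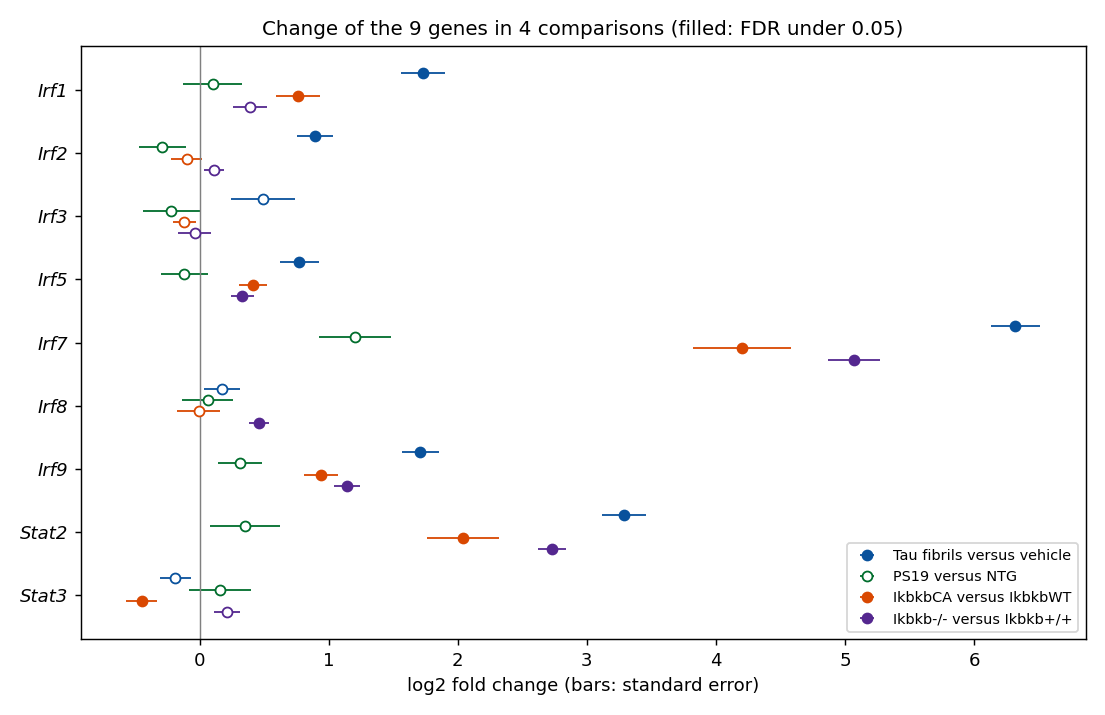
Log2 fold changes (horizontal axis, bars are standard errors) of the 9 genes in the 4 comparisons, with filled points for an FDR under 0.05 in edgeR's quasi-likelihood test. Irf7 has the largest change of the 9 in each comparison, from 1.2 in PS19 to 6.32 with tau fibrils, and every filled point other than that of Stat3 in IkbkbCA lies to the right of 0.

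Irf7, on chromosome 7 (GRCm38 chr7:141262706-141266481, minus strand), encodes the factor that amplifies type I interferon production. Its level was 292, 326, 335 and 389 CPM in the tau fibril cultures and 3.73, 3.89, 4.27 and 4.99 CPM in the vehicle cultures. The vehicle libraries held 8 to 20 reads of the gene, so the lower values carry the larger counting error. Irf7 shares 45 exonic bases near its 3′ end with Phrf1, on the opposite strand. The log2 fold change was 6.32 ± 0.19, or 79.9-fold (edgeR FDR = 2.6e-19), and Irf7 had the smallest p of all 10408 genes.

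Irf7 also rose in both Ikbkb experiments. It was 73.4, 289, 292, 314 and 344 CPM in IkbkbCA against 8.98, 13, 14.1, 15.6 and 19 CPM in IkbkbWT. The lowest IkbkbCA value belongs to replicate 3 and was still above every IkbkbWT library. The change was 4.20 ± 0.38, or 18.4-fold (edgeR FDR = 3.0e-05), and it was 4.46 without replicate 3. In Ikbkb-/- cultures Irf7 was 277, 303, 445 and 503 CPM, and in Ikbkb+/+ it was 9.67, 10, 12.9 and 14.3 CPM. All 4 values of the deletion lay far above the controls, with a change of 5.07 ± 0.20, or 33.7-fold (edgeR FDR = 1.9e-12).

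In adult microglia Irf7 was low. It was 16, 16.7, 17.4 and 20.2 CPM in PS19 and 4.81, 6.58, 8.15 and 9.65 CPM in NTG, with 8 to 37 reads in the NTG libraries. The groups did not overlap, and the log2 fold change of 1.2 ± 0.28 had an unadjusted p of 8.5e-04 and an edgeR FDR of 0.193. Across the 8 groups the order of mean levels was Ikbkb-/- (382 CPM), tau fibrils (336), IkbkbCA (262), PS19 (17.5), IkbkbWT (14.1), Ikbkb+/+ (11.7), NTG (7.29) and vehicle (4.22). The first 3 groups overlapped as neighbours, and a gap separated IkbkbCA from PS19 and Ikbkb+/+ from NTG. The largest group mean was 90.5 times the smallest, the widest span of the 9 genes.

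Stat2, the STAT of the ISGF3 complex (chr10:128270559-128292849, plus strand), followed. With tau fibrils it was 95.5, 106, 116 and 118 CPM against 9.6, 10.4, 11.4 and 12 CPM with vehicle, a change of 3.29 ± 0.17 (edgeR FDR = 1.5e-14). IkbkbCA cultures had 24.6, 46.1, 56.5, 57.6 and 64.2 CPM and IkbkbWT cultures 6.81, 9.46, 12, 15.2 and 17.1 CPM, a change of 2.04 ± 0.28 (edgeR FDR = 5.5e-04), and the lowest IkbkbCA value was again replicate 3. In Ikbkb-/- the values were tight, at 68.9, 70.4, 71.7 and 73.1 CPM, against 9.4, 10.4, 11 and 12.5 CPM in Ikbkb+/+, a change of 2.73 ± 0.11 (edgeR FDR = 4.9e-12). No treated or mutant culture overlapped its controls. PS19 libraries had 17.6, 17.9, 18.6 and 29.9 CPM and NTG libraries 10.4, 14.4, 18.9 and 19.4 CPM, which overlapped (0.35 ± 0.27, edgeR FDR = 0.76). The 4 control groups were alike in mean, at 10.8 to 15.8 CPM, and among the 3 groups with high Stat2 the tau fibril cultures lay above all Ikbkb-/- cultures, which lay above all IkbkbCA cultures.

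Irf9, the DNA-binding partner of STAT2 (chr14:55603571-55610030, plus strand), had a smaller change and a higher control level, at 37.5 to 85.2 CPM over the 3 culture control groups. With tau fibrils it was 112, 127, 136 and 140 CPM against 37.5, 38.4, 39.3 and 40.3 CPM (1.71 ± 0.14, edgeR FDR = 1.9e-10). It was 111, 153, 157, 159 and 181 CPM in IkbkbCA against 64.3, 72.4, 83.2, 83.4 and 85.2 CPM in IkbkbWT (0.94 ± 0.13, edgeR FDR = 4.1e-04). The Ikbkb-/- cultures had 145, 155, 167 and 205 CPM and their controls 72.6, 74.6, 79.7 and 81.2 CPM (1.14 ± 0.10, edgeR FDR = 2.1e-07). The groups did not overlap in any of the 3. In PS19 all 4 libraries (79, 83.4, 86.7 and 109 CPM) lay above all 4 NTG libraries (67.9 to 73.9 CPM), with a change of 0.31 ± 0.17 that was not called (edgeR FDR = 0.645).

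**Figure D2:**
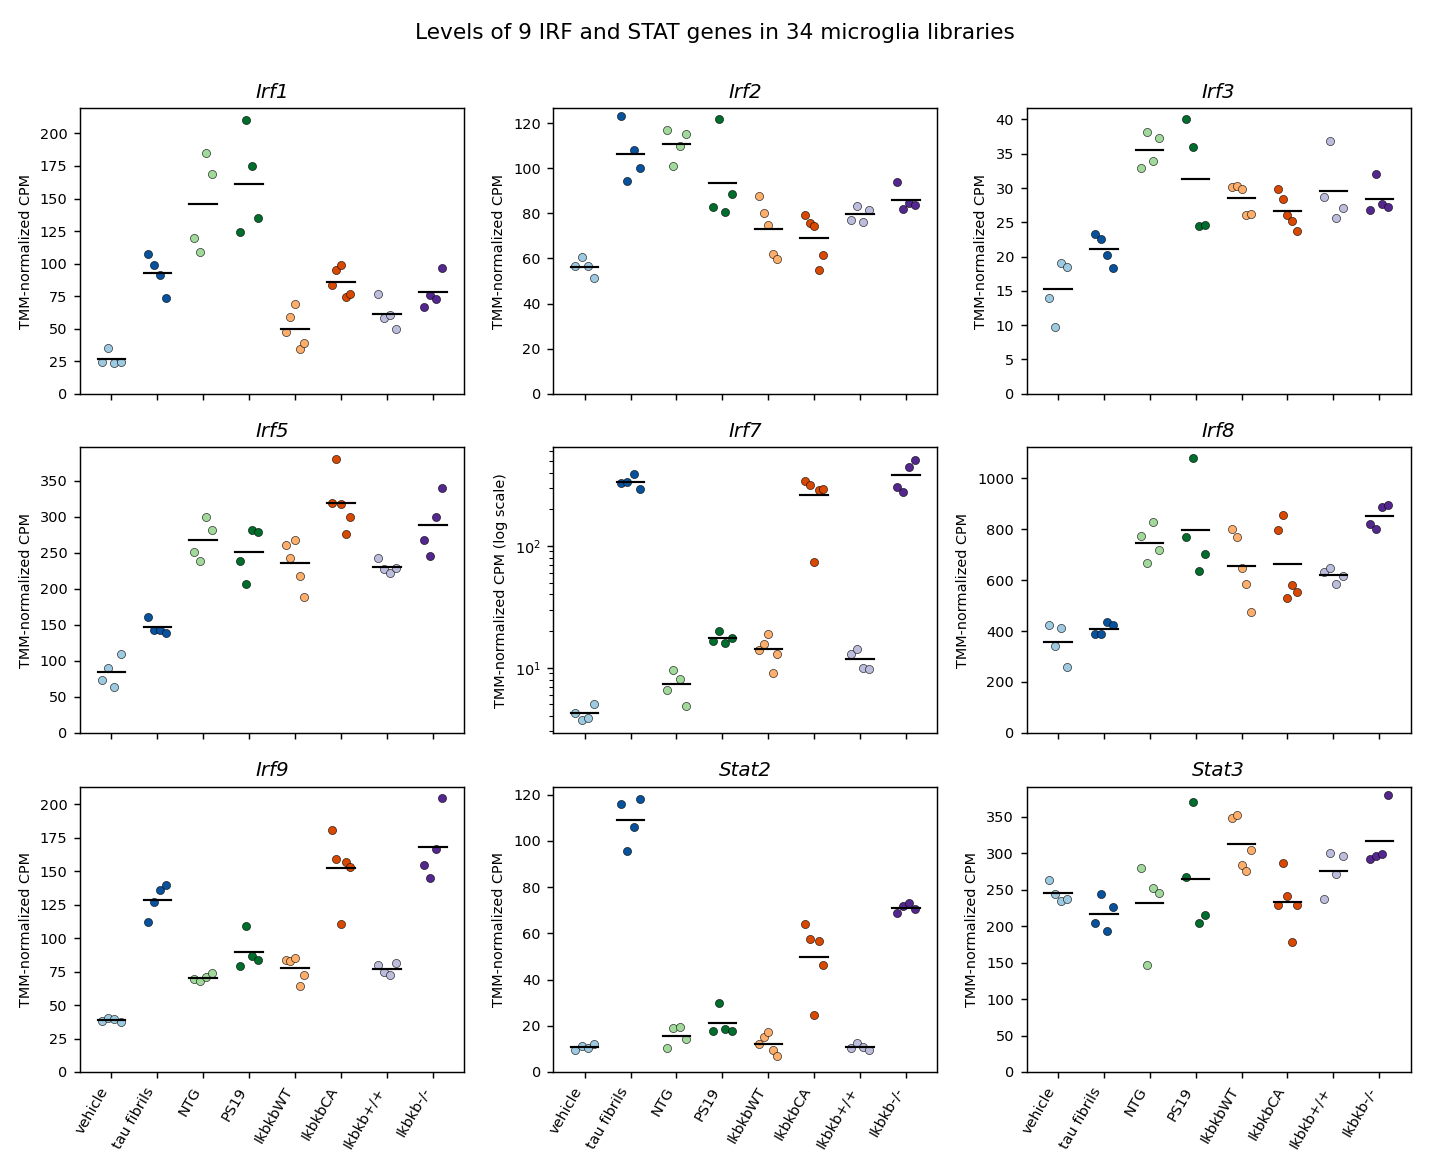
TMM-normalized CPM of each of the 9 genes (vertical axes, logarithmic for Irf7 and from 0 for the others) in every library of the 8 groups, with 1 point per library and a bar at the group mean. Irf7, Stat2 and Irf9 of the tau fibril, IkbkbCA and Ikbkb-/- groups lie above all libraries of their own control groups, and IkbkbCA replicate 3 is the lowest of its group for all 3 genes.

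Irf1, an activator induced by interferon-γ and NF-κB (chr11:53770014-53778374, plus strand), was 73.3, 91.5, 99.2 and 107 CPM with tau fibrils and 23.7, 24, 24.5 and 35.2 CPM with vehicle. The groups lay apart, with a change of 1.73 ± 0.17 (edgeR FDR = 9.7e-09). In IkbkbCA it was 74.6, 76.8, 83.6, 95 and 98.7 CPM against 34.7, 38.8, 47.6, 59.3 and 69.2 CPM in IkbkbWT (0.76 ± 0.17, edgeR FDR = 0.0111). These groups also did not overlap, but with closely alike libraries summed the call was lost (0.70, edgeR FDR = 0.178). The Ikbkb-/- cultures had 66.7, 73.1, 76 and 96.6 CPM and the Ikbkb+/+ cultures 49.9, 58, 60.5 and 76.5 CPM. Here the groups overlapped, and the change of 0.39 ± 0.13 lay just past the threshold (edgeR FDR = 0.0553) and was called under 4 of 15 alternatives. Adult microglia had the highest Irf1 of all groups, 109 to 210 CPM, with no detectable difference between PS19 and NTG (0.10 ± 0.23, edgeR FDR = 0.928).

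Irf2, which can compete with IRF1 (chr8:46739732-46847458, plus strand), was called with tau fibrils and in none of the other 3 comparisons. It was 94.2, 100, 108 and 123 CPM with tau fibrils and 51.4, 56.5, 56.6 and 60.8 CPM with vehicle (0.89 ± 0.14, edgeR FDR = 1.9e-05), and no tau fibril culture overlapped the vehicle cultures. In the Ikbkb experiments it was 54.9 to 94 CPM in all 18 cultures, with changes of -0.10 ± 0.12 and 0.11 ± 0.08. PS19 and NTG overlapped at 80.4 to 122 CPM and 101 to 117 CPM (-0.29 ± 0.18, edgeR FDR = 0.69).

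Of the factors that are switched on by phosphorylation downstream of pattern sensors, Irf5 was called in 3 comparisons and Irf3 in none. Irf5 (chr6:29526625-29541871, plus strand) was 139, 142, 143 and 161 CPM with tau fibrils and 63, 73.6, 89.8 and 110 CPM with vehicle (0.77 ± 0.15, edgeR FDR = 2.6e-04). It was 276, 299, 317, 319 and 380 CPM in IkbkbCA against 188, 218, 243, 260 and 267 CPM in IkbkbWT (0.41 ± 0.11, edgeR FDR = 0.0238). In Ikbkb-/- it was 245, 268, 299 and 340 CPM against 222, 227, 228 and 243 CPM (0.33 ± 0.09, edgeR FDR = 0.0219). The groups lay apart in all 3, yet the 2 smaller changes are close to the threshold. The IkbkbCA call was lost without IkbkbWT replicate 2, 4 or 5 or IkbkbCA replicate 2, and the Ikbkb-/- call without Ikbkb+/+ replicate 2, 3 or 4 or Ikbkb-/- replicate 3 or 4. Irf5 and Tnpo3, on the opposite strand, share exonic bases near the 3′ end of Irf5, and the strand setting of the counting is not given in the sources used here.

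Irf3 (chr7:44997648-45002848, plus strand) was 9.69 to 40.1 CPM over all 34 libraries, and in the 4 control groups only Irf7 and Stat2 had a lower mean. It was not called in any of the 4 comparisons. The change with tau fibrils was 0.49 ± 0.25 (edgeR FDR = 0.142), with 18.3 to 23.3 CPM against 9.69 to 19 CPM, and 3 of the 4 tau fibril cultures lay above all vehicle cultures. The other changes were -0.22 ± 0.22 in PS19, -0.12 ± 0.09 in IkbkbCA and -0.04 ± 0.13 in Ikbkb-/-.

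Irf8, the lineage factor of microglia (chr8:120736358-120756694, plus strand), had the highest level of the 9 genes in every group, with means of 359 CPM with vehicle to 851 CPM in Ikbkb-/-. It was 800, 821, 889 and 894 CPM in Ikbkb-/- and 585, 616, 631 and 648 CPM in Ikbkb+/+, and the gap between the groups gave a rise of 0.46 ± 0.08 (edgeR FDR = 3.6e-04). The FDR was 0.0849 in 1 fit of the 18 libraries and 0.0511 with closely alike libraries summed. No change was called with tau fibrils (387 to 437 CPM against 260 to 422 CPM, 0.17 ± 0.14), in IkbkbCA (-0.01 ± 0.17) or in PS19 (0.06 ± 0.20). Within IkbkbWT and IkbkbCA the level was spread widely, from 473 to 801 CPM and from 529 to 856 CPM. Adult microglia had 635 to 1080 CPM and the tau fibril and vehicle cultures 260 to 437 CPM, with no overlap between these sets of libraries.

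Stat3, the STAT of interleukin-6 type cytokines (chr11:100885098-100939540, minus strand), was the only member to fall. It was 179, 229, 229, 241 and 287 CPM in IkbkbCA and 276, 284, 304, 349 and 353 CPM in IkbkbWT, and 4 of the 5 IkbkbCA cultures lay below all IkbkbWT cultures. The change was -0.45 ± 0.12 (edgeR FDR = 0.0214). The call was lost without IkbkbWT replicate 1 or 2 or IkbkbCA replicate 1 or 3, at -0.39, -0.41, -0.41 and -0.44. In Ikbkb-/- Stat3 was 292, 296, 299 and 380 CPM against 237, 271, 296 and 300 CPM, overlapping groups with a change of 0.21 ± 0.10 (edgeR FDR = 0.177). With tau fibrils it was 193 to 244 CPM against 234 to 264 CPM (-0.19 ± 0.12, edgeR FDR = 0.263). The PS19 range of 205 to 371 CPM overlapped the NTG range of 147 to 280 CPM (0.16 ± 0.24, edgeR FDR = 0.896). Over the 8 groups Stat3 was the most even of the 9, with the largest mean 1.46 times the smallest and overlap between all neighbours in the order of levels. Stat3 and Stat5a run towards each other and share 72 exonic bases at their ends, and reads within these bases can be told apart only where the strand was used.

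Of the 9 genes, 4 (Irf5, Irf7, Irf9 and Stat2) were called higher in all 3 culture comparisons, Irf1 in 2 of them and Irf2 and Irf8 in 1. Of the 9845 genes tested in all 3, 2.50% were called higher in 3, 4.02% in 2 and 15.2% in 1. The 2 Ikbkb experiments were set against each other in 1 fit of their 18 libraries, which asks whether activation and loss of IKKβ moved a gene differently. Over 12352 genes this difference was called for 3.12%, and among the 9 for Stat3 alone (IkbkbCA effect minus Ikbkb-/- effect -0.64 ± 0.17, edgeR FDR = 0.0415). That call held under 10 of 25 alternatives and was lost on leaving out 14 of the 18 libraries. For Irf7 the difference was -0.84 ± 0.49 (edgeR FDR = 0.435), for Stat2 -0.66 ± 0.35 (0.38), for Irf8 -0.45 ± 0.21 (0.308), for Irf1 0.40 ± 0.25 (0.476) and for Irf9 -0.17 ± 0.18 (0.698), which does not show that the effects were equal.

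The tau fibril effect was set against the IkbkbCA effect in 1 fit of 18 libraries, which share no samples between the 2 effects. Here 9.42% of 12841 genes and 5 of the 9 were called, all with the larger change under tau fibrils. The differences were 2.05 ± 0.51 for Irf7 (edgeR FDR = 0.0147), 1.18 ± 0.36 for Stat2 (0.0451), 0.91 ± 0.19 for Irf2 (0.00349), 0.90 ± 0.26 for Irf1 (0.0343) and 0.69 ± 0.18 for Irf9 (0.0189). The Stat2 call held under 9 of 24 alternatives and was lost on leaving out 13 of the 18 libraries. For Irf7 the tau fibril and IkbkbCA cultures overlapped in level (292 to 389 CPM and 73.4 to 344 CPM), while the vehicle cultures (3.73 to 4.99 CPM) lay below all IkbkbWT cultures (8.98 to 19 CPM). The experiments differ in mouse line and in 4-hydroxytamoxifen, so levels across them are not matched. Limma-voom called 2 of the 9, and leaving out tau fibril replicate 1 or 2, vehicle replicate 1, 3 or 4 or IkbkbCA replicate 4 or 5 left 3.

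The genes around these factors were grouped in lists by their known roles, also with earlier results of these data known. Counts and medians of the lists are therefore descriptions too. Interferon ligands had few reads. The 5 type I interferon genes listed (Ifnb1 and 4 Ifna genes) had 52 reads in all over the 34 libraries. Ifnb1 accounted for all of them, with 0 reads in the tau fibril and vehicle cultures, 12 reads in IkbkbCA, 3 in IkbkbWT, 11 in Ikbkb-/-, 3 in Ikbkb+/+ and 0 in NTG, and 21 of the 23 in PS19 were in 1 library. Of the 13 ligand genes only Osm, the cytokine oncostatin M, could be tested in all 4 comparisons, and it was not called (log2 fold changes -0.47 to 0.66), with means of 7.5 CPM in the tau fibril cultures to 274 CPM in PS19.

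Of the receptors and kinases 9 of 12 tested were called higher with tau fibrils and 2 lower, Lifr (-1.01 ± 0.22) and Il6st (-0.68 ± 0.16), in the comparison with the largest share of all genes called. Il10ra, a receptor chain for interleukin-10, rose by 2.03 ± 0.22 (edgeR FDR = 4.3e-08), the kinase gene Tyk2 by 1.31 ± 0.20 (9.1e-06) and Ifngr2, an interferon-γ receptor chain, by 1.16 ± 0.17 (4.5e-06). In IkbkbCA 3 of 14 were higher and 3 lower, the largest changes being those of Lifr (-1.23 ± 0.29), Il6ra (-0.75 ± 0.12) and Il6st (-0.59 ± 0.10), receptor chains of the interleukin-6 family. In Ikbkb-/- only Il6st of 13 was called (-0.45 ± 0.14, edgeR FDR = 0.0412). With closely alike libraries summed none of the list was called in either Ikbkb experiment, and none of 14 was called in PS19.

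Sensors and adaptors upstream of IRF3, IRF5 and IRF7 rose in part. With tau fibrils 11 of 17 were called higher and none lower, in IkbkbCA 6 higher and 2 lower, and in Ikbkb-/- 5 higher and none lower. The medians were 0.91, 0.16 and 0.05 in that order, against -0.01, -0.05 and 0 for all genes. With closely alike libraries summed, 6 of 17 were called higher in IkbkbCA and 4 of 17 in Ikbkb-/-. Ifih1 and Ddx58, which encode sensors of viral RNA, rose by 3.25 ± 0.18 and 3.23 ± 0.19 with tau fibrils, by 1.89 ± 0.15 and 2.33 ± 0.18 in IkbkbCA, and by 2.08 ± 0.12 and 2.28 ± 0.11 in Ikbkb-/- (edgeR FDR at most 1.6e-05). Ikbke, which encodes a kinase of IRF3 and IRF7, rose by 2.44 ± 0.29 with tau fibrils and by 1.79 ± 0.16 in IkbkbCA, and its IkbkbCA effect exceeded its Ikbkb-/- effect by 1.95 ± 0.23 (edgeR FDR = 5.4e-05).

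ISGF3 target genes were called higher almost throughout. Of 21 tested with tau fibrils all 21 were called higher, of 22 in IkbkbCA 21, and of 22 in Ikbkb-/- 20, with none lower. The medians were 4.66, 2.61 and 3.22 against -0.01, -0.05 and 0 for all genes. For tau fibrils 4 of the genes had at most 3 reads in every vehicle library, and with these at their lower bound the median was 4.11. Oas3, an antiviral RNA-sensing enzyme, rose by 5.25 ± 0.37, 4.72 ± 0.57 and 5.36 ± 0.28 in the 3 comparisons (edgeR FDR at most 2.0e-04). Its control means were only 0.965, 1.05 and 1.14 CPM in that order, so the sizes of these folds rest on few reads. With tau fibrils Mx1, an antiviral GTPase, was at least 13.6-fold and Oas2 at least 9.61-fold higher, computed against 3 reads per vehicle library. In PS19 none of 17 was called, and their median was 0.54 against 0 for all genes. With closely alike libraries summed, 8 of 22 were called in IkbkbCA (median 2.39, and 21 of 22 without IkbkbCA replicate 3) and 20 of 22 in Ikbkb-/- (median 3.26).

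Interferon-γ-type target genes, which hold guanylate-binding proteins and genes of antigen presentation, were called higher in 11 of 11 tested with tau fibrils, 10 of 10 in IkbkbCA and 8 of 11 in Ikbkb-/-, with none lower. Gbp2 rose by 4.22 ± 0.38, 2.02 ± 0.22 and 2.98 ± 0.28 in that order (edgeR FDR at most 9.1e-05). Cxcl9, a chemokine induced by interferon-γ, was at least 36.5-fold higher with tau fibrils and at least 6.54-fold higher in Ikbkb-/-, against 3 reads per control library. The medians were 2.66, 1.63 and 1.16, and in PS19, where none of 9 was called, 0.09. With closely alike libraries summed, 4 of 10 were called in IkbkbCA and 8 of 11 in Ikbkb-/-.

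STAT3 target genes were called in different directions. With tau fibrils 8 of 10 were called higher, in IkbkbCA 2 of 11 higher, and in Ikbkb-/- 6 of 10 lower, with no call the other way in any of the 3. In Ikbkb-/- Socs3, the feedback inhibitor of STAT3, fell by 1.59 ± 0.32 (edgeR FDR = 0.00188), Myc by 1.28 ± 0.27 (0.00301) and Fos by 1.21 ± 0.15 (1.3e-05), while Stat3 itself was not called. Socs3 was 14.7 to 61.8 CPM in Ikbkb+/+ and 9.83 to 13.6 CPM in Ikbkb-/-. In the same controls the granulocyte markers summed to 7.81 to 394 CPM, against 8.01 to 12 CPM in Ikbkb-/-, and their part in the result was not tested. With closely alike libraries summed 4 of 10 were called lower in Ikbkb-/- and none of 11 called in IkbkbCA. The difference between the IkbkbCA and Ikbkb-/- effects was called for 5 of 11, all higher, among them Socs3 (1.81 ± 0.41, edgeR FDR = 0.018) and Fos (1.67 ± 0.37, 0.0151). Saa3 rose by 5.16 ± 0.19 with tau fibrils and by 6.89 ± 1.12 in IkbkbCA, where 24700 CPM in replicate 3 set the mean and the other 4 libraries had 901 to 1740 CPM against 26.3 to 95.9 CPM in IkbkbWT. Junb, Fos and Myc also answer other signals, so the list is not specific to STAT3. Whether STAT3 took part in the rise of Saa3, or in any other change of the list, was not tested.

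Among feedback inhibitors Usp18, an inhibitor of interferon receptor signalling, rose by 4.99 ± 0.25 with tau fibrils, 3.94 ± 0.40 in IkbkbCA and 3.92 ± 0.18 in Ikbkb-/- (edgeR FDR at most 5.3e-05). Socs1 rose in the last 2 (1.25 ± 0.32 and 1.70 ± 0.31), and 2 of 8, 2 of 9 and 2 of 8 tested of the list were higher in the 3 comparisons. In Ikbkb-/- 1 was lower (Socs3), in IkbkbCA also 1, Ptpn11 (-0.30 ± 0.07). The partners and targets of PU.1 and IRF8 were called higher in 6 of 8 with tau fibrils, whereas 2 of 10 were higher and 2 lower in IkbkbCA and 2 higher and 4 lower in Ikbkb-/-. Cybb, a subunit of the phagocyte oxidase, rose in all 3 (2.51 ± 0.13, 1.73 ± 0.25 and 0.95 ± 0.08). Siglech, a microglial surface lectin, fell by 3.79 ± 0.68 in Ikbkb-/- (edgeR FDR = 7.6e-04), with controls spread over a mean of 151 ± 128 CPM (SD). The groups overlapped, at 8.01 to 15.5 CPM in Ikbkb-/- and 9.8 to 304 CPM in Ikbkb+/+. Cx3cr1 fell in IkbkbCA (-0.56 ± 0.09) and Ikbkb-/- (-1.16 ± 0.12), the genotypes that carry Cre in that locus, and rose with tau fibrils (1.08 ± 0.14).

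Target genes of p53 were listed as a set outside the interferon pathway. They were called higher in 7 of 8 in IkbkbCA and 8 of 8 in Ikbkb-/-, among them Cdkn1a, a cell cycle inhibitor (1.33 ± 0.13 and 1.84 ± 0.09, edgeR FDR at most 4.2e-05), and in 2 of 8 with tau fibrils, with 1 lower (Trp53inp1, -0.72 ± 0.20). With closely alike libraries summed, 3 of 8 were called in IkbkbCA and 7 of 8 in Ikbkb-/-. None of 8 was called in PS19. Of the other family genes, Stat6 rose with tau fibrils (0.87 ± 0.20, edgeR FDR = 0.0012) and Stat5a fell in Ikbkb-/- (-0.73 ± 0.19, edgeR FDR = 0.0119).

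**Figure D3:**
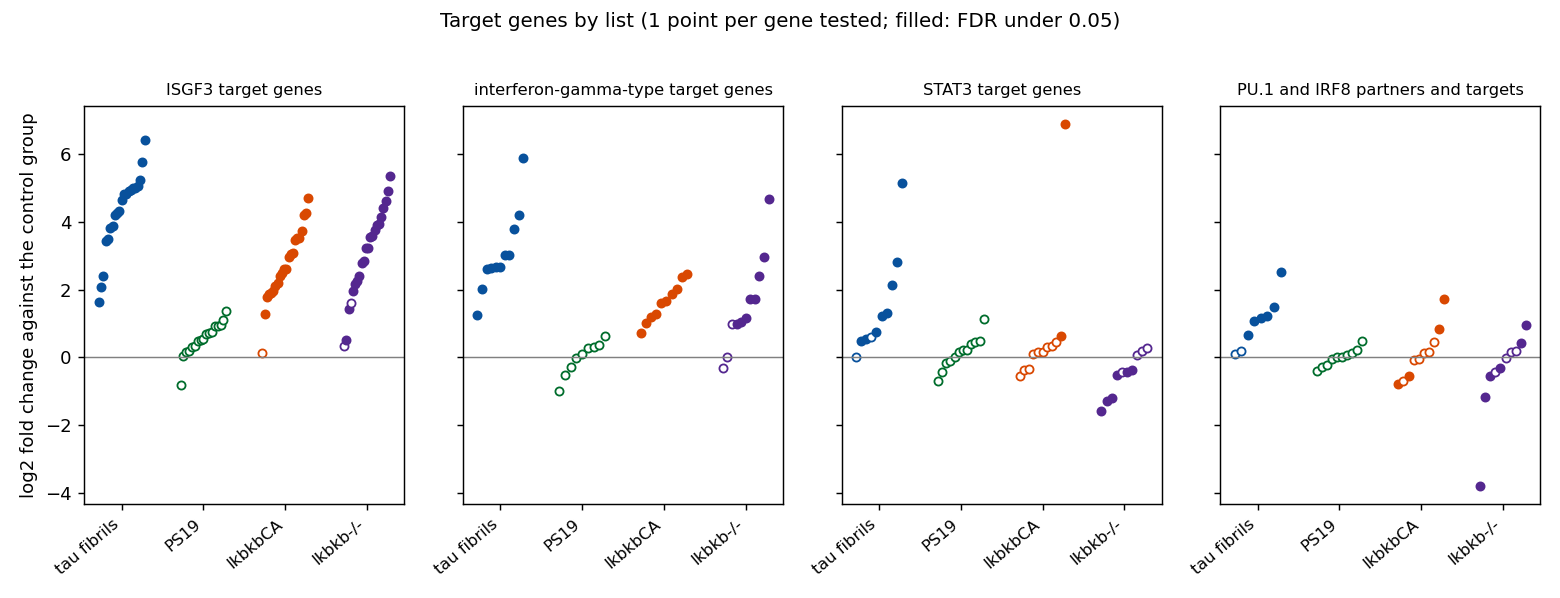
Log2 fold changes (vertical axis) of each tested gene of 4 lists in the 4 comparisons, 1 point per gene in rising order, filled for an FDR under 0.05 in edgeR's test. ISGF3 target genes lie above 0 with tau fibrils, in IkbkbCA and in Ikbkb-/- with medians of 4.66, 2.61 and 3.22, whereas STAT3 target genes lie mainly above 0 with tau fibrils and have 6 of 10 called lower in Ikbkb-/-.

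The genes whose pattern was most like that of each member were sought among 9367 genes tested in all 4 comparisons, by Pearson's r of log2 CPM over the 34 libraries after subtracting the mean of each library's control group. These points share the control means and the depth of the libraries, so the values are descriptions. For Irf7 the nearest were Stat2 (r = 0.983), Isg15 (0.98) and Oasl2 (0.979), for Stat2 Irf7, Phf11b (0.98) and Isg15 (0.977), and for Irf9 Sp100 (0.979), Irf7 (0.978) and Dhx58 (0.972). Irf1 was nearest to Hcls1 (0.931), Tapbp and Trpm2 (both 0.916), and Irf5 to Psmb9 (0.915) and Psmb8 (0.897), subunits of the immunoproteasome, and 5430427O19Rik (0.891). Irf2 was nearest to Fyb (0.924), Mia2 (0.917) and Wnk1 (0.906). Irf3, Irf8 and Stat3 had looser neighbours, with the highest r at 0.834 (Ddx49), 0.762 (1700017B05Rik) and 0.817 (Ndufa10).

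Within groups, with each group's mean subtracted, the highest r of the 36 pairs of members were those of Irf7 with Stat2 (0.71) and Irf7 with Irf9 (0.70) over 34 libraries. Without IkbkbCA replicate 3 they were 0.51 and 0.50. Irf2 with Irf8 was 0.69, and 0.77 without that library. Between Irf7 and Stat3 r was -0.03.

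**Figure D4:**
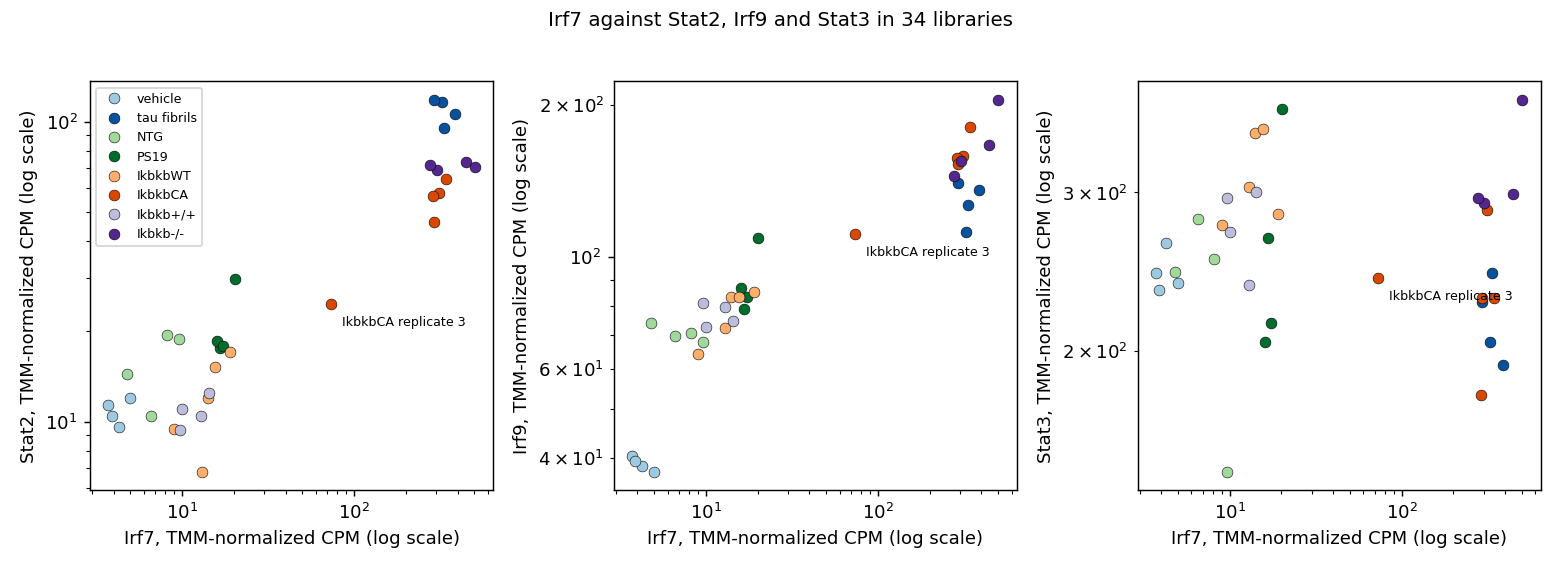
Irf7 (horizontal axis) against Stat2, Irf9 and Stat3 (vertical axes) in the 34 libraries, as TMM-normalized CPM on logarithmic axes, coloured by group. Stat2 and Irf9 are high in the tau fibril, IkbkbCA and Ikbkb-/- libraries where Irf7 is high, IkbkbCA replicate 3 lies between the clusters at 73.4 CPM of Irf7, and Stat3 is 147 to 371 CPM in the 5 groups with low Irf7 and 179 to 380 CPM in the 3 with high Irf7.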

How the data were processed

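Total RNA of microglia was sequenced by QuantSeq 3′ mRNA-seq, and the authors counted reads per gene against GENCODE genes of GRCm38 with the Lexogen pipeline on BlueBee. The deposited tables hold whole-number counts per gene for each of 34 libraries, with closing lines for reads outside genes (12.4 to 38.3%) and ambiguous reads (0.409 to 0.708%), which were left out. Each table holds 1 library. The strand setting is not given in the sources used here. Of 47643 gene IDs, 47224 were named from GENCODE M21.

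Counts were filtered (filterByExpr, minimum count 10, minimum total 15), scaled by TMM and tested per comparison with edgeR 4.0.16 (quasi-likelihood, R 4.3.3), with Benjamini-Hochberg adjustment over all genes tested and a threshold of 0.05. Dividing the fold change by the root of F gave its standard error. Alternatives were DESeq2 1.42.0, limma-voom (limma 3.58.1), other scalings, no filter, covariates and leaving out each library. Added after seeing the data were sums of closely alike libraries and Ddx3y as a covariate. Total counts of 1672052 to 8349128 limit the precision of low genes, and a fold against a group with at most 3 counts per library is given as a lower bound. The code was tested on simulated data.

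The 9 genes and the lists were chosen with earlier results of these data known. All 9 are named in each comparison, with up to 3 genes of a list, those with the largest change among its called genes, and for each member the 3 genes most like it. Ikbkb, Cx3cr1 and genes named for what a library check rests on were added to these. The result of 1 further family gene is not reported here.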

Additional observations from a re-analysis of the deposited data

Results flagged for a closer look

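Of 72 sets of values (9 genes in 8 groups), 5 held a library far from the rest of its group by Dixon's criterion, where chance gives about 5% of sets. Irf7 was lowest in IkbkbCA replicate 3, at 73.4 CPM with the next at 289 CPM. Irf1 was highest in vehicle replicate 2, at 35.2 CPM with the next at 24.5 CPM. Stat2 was highest in PS19 replicate 2, at 29.9 CPM with the next at 18.6 CPM, in the library with 38.3% of its reads outside genes. In Ikbkb-/-, Irf3 was highest in replicate 2 (32 CPM, next 27.7 CPM) and Stat3 in replicate 4 (380 CPM, next 299 CPM).

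A difference between effects was called by edgeR for 6 values. The IkbkbCA effect on Stat3 was lower than the Ikbkb-/- effect by a log2 difference of -0.64. The tau fibril effect exceeded the IkbkbCA effect by 2.05 for Irf7, 1.18 for Stat2, 0.91 for Irf2, 0.90 for Irf1 and 0.69 for Irf9.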

How the results depend on the processing

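Of 990 values of single genes under alternatives, 905 kept their direction and side of the threshold, 61 lost a call, 6 gained one and 18 changed sign, none of them a called result. The sign changes were those of Irf1 in PS19 (0.10) with age as a covariate (-0.17) or a library left out (-0.02 to 0.23), of Irf8 and Stat3 in PS19 with a library left out (-0.09 to 0.15 and -0.01 to 0.28), of Irf8 in IkbkbCA (-0.01) with RLE or DESeq2 (both 0.02), no filter or 1 fit of 18 libraries (both 0.01) or a library left out (-0.11 to 0.10), of Irf3 in Ikbkb-/- (-0.11 to 0.09) and in the difference between the Ikbkb effects (-0.17 to 0.03), and of Irf8 in the difference between the tau fibril and IkbkbCA effects (-0.02 to 0.23). The cause was not tested. The number of the 9 genes called moved from 0 to 1 in PS19 with DESeq2, from 6 to 1 in IkbkbCA with closely alike libraries summed, from 5 to 3 in Ikbkb-/- with 1 fit of 18 libraries or libraries summed, from 1 to 0 for the difference between the Ikbkb effects with libraries summed, and from 5 to 2 for the difference between the tau fibril and IkbkbCA effects with limma-voom. Leaving out a library gave 0 to 1 and 3 to 5 in these last comparisons. Summing leaves 3 libraries per group or fewer. Total-count scaling moved the median of all genes to -0.16 with tau fibrils, where Stat3 was then called (-0.34, edgeR FDR = 0.0424). No paired analysis was possible because the replicate numbers follow the order of accession and the labels pair no samples. Control libraries held as few as 8 reads of Irf7, which limits its fold changes, and the 4 Ifna genes listed had 0 reads in all libraries.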
